A study of Mus musculus with 6 samples.

Results

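Messenger RNAs of the neuronal synapse were followed in RNA from mouse cerebral microvessels, the small blood vessels isolated from whole brain. The 35 genes were fixed by symbol, and all 35 were found among the 23183 gene symbols of the expression tables. They comprise 16 genes of the presynaptic terminal, 15 genes of the postsynaptic side and 4 genes of the neuronal nucleus and cytoskeleton. Every one had a mean of at least 1 FPKM, the fragments of a gene scaled by its exon length and by the size of the library, over the 6 libraries, which made all 35 part of the 14247 genes tested.

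The study asked what changes in brain endothelial cells (ECs) that lose Crif1, a protein of the large mitochondrial ribosome encoded by Gadd45gip1, and sequenced microvessel RNA from 3 WT and 3 TEKCRIF1 KO mice. WT mice carried TEK-cre with intact Crif1 alleles (Crif1+/+), and TEKCRIF1 KO mice carried TEK-cre with both alleles floxed (Crif1 flox/flox), so that Cre driven by the Tek promoter was present in both groups. The labels give C57BL/6 and no treatment for every sample. The age of the mice was not analysed here. Tek is active in ECs and in part of the blood cell lineage, and the deletion was therefore not directed at neurons. Microvessels were enriched by homogenization, centrifugation through dextran and retention on a strainer, without a sort for ECs.

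At a synapse, an arriving action potential opens calcium channels in the presynaptic terminal, and vesicles loaded with glutamate or GABA fuse with the membrane at the active zone. The transmitter opens receptors on the postsynaptic membrane, where scaffold proteins tie them to kinases of the dendritic spine. Most of these mRNAs are made in the neuronal cell body, while a few, such as those of Camk2a, Map2, Shank1 and Dlg4, are known to travel into dendrites. None of the 35 genes is a classical marker of ECs.

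The deleted gene was lower in the KO libraries. Gadd45gip1 stood at 18.8, 15.3 and 16.5 FPKM in WT 1 to WT 3 and at 10.8, 7.54 and 10.4 FPKM in KO 1 to KO 3 (values of a group are given in this order throughout), with no overlap (log2 fold change −0.77, SE 0.22, unadjusted p = 0.00534 and adjusted p = 0.841 with limma and Benjamini-Hochberg adjustment). The endothelial markers Cldn5, Pecam1, Tek and 7 more were all above the 1 FPKM limit, and their summed level was between 949 and 1257 FPKM in WT and between 862 and 1103 FPKM in KO libraries. Depth, estimated from the steps in the low FPKM values, was 6500000 to 11900000 fragments per library. The smallest number of fragments estimated behind a synapse gene in any library was 72, for Slc17a6 in KO 3, whereas 3 fragments correspond to 0.252 to 0.461 FPKM for a transcript of 1 kb.

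Promoter sequence was examined first, because a single repressor, REST, is known to keep many neuronal genes silent outside neurons through a DNA element called RE1. RefSeq promoter windows (GRCm38.p6, from 250 bases before to 50 bases after a transcription start) were matched by symbol for 25 of the 35 genes, in 32 windows. The inner part of RE1, AGCACC and GGACAG with 2 free bases between them, was searched on both strands. It was present in 0.0517% of all 32851 windows and in the windows of Gad2 and Gria2. The cyclic AMP response element TGACGTCA, which reads the same on both strands, was present in 1.79% of all windows and among the synapse genes in the window of Syn1. The left end of RE1, TTCAGCACC, searched on both strands as well, was present in 0.371% of windows and again in that of Syn1. The matches do not overlap one another in the Syn1 window, while the left end of RE1 shares its AGCACC with the inner part. The stretches that hold these matches are shown because they hold the searched elements. Gad2 and Gria2 had the highest log2 fold changes of the 35 genes in the uncorrected values (0.30 and 0.28, each smaller than its SE, and below 0 without KO 2), and Syn1 one of the lowest. After length and GC correction Gria2 stood at 0.03, below Gad1, Gabrb2, Gria3 and others. Each is written 5′ to 3′ on the strand of the gene, with the matches in capitals, and the Gria2 match lies on the opposite strand.
Gad2 (chr2:22622127-22622204, plus strand, 200 to 123 bases before the start): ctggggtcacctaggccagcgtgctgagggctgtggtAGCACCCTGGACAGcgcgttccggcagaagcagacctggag
Gria2 (chr3:80802956-80803035, minus strand, 200 to 121 bases before the start): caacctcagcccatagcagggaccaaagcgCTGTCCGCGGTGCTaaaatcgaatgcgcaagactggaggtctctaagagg
Syn1 (chrX:20921049-20921168, minus strand, 250 to 131 bases before the start): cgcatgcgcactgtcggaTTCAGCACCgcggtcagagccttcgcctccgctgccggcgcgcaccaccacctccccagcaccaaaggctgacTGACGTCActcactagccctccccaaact
These matches are descriptions of the letters, and no binding was measured in these libraries.

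Synapse mRNAs were readily measured in the microvessel preparations of both genotypes. Mean levels over the 6 libraries ran from 3.07 FPKM for Gad2 to 456 FPKM for Nrgn, with a median of 22.7 FPKM, beside a median of 9.55 FPKM over all genes tested. Summed over the 35 genes, the level was 1337, 1856 and 2175 FPKM in WT 1 to WT 3 and 1321, 1830 and 1018 FPKM in KO 1 to KO 3. These sums were 0.309%, 0.417% and 0.512% of all FPKM in the WT libraries and 0.245%, 0.480% and 0.227% in the KO libraries. The libraries of each genotype thus spanned a wide range, and the ranges overlapped. In such bulk RNA, fewer neuronal fragments and less RNA per neuron cannot be told apart.

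The genes varied together from library to library. WT 3 held the highest value of 17 of the 35 genes (12.7% of all genes tested had their highest value there), and KO 2 held the highest value of 14 (21.3% of all genes). KO 3 held the lowest value of 23 genes (17.3% of all genes), and KO 1 of 9 (17% of all genes). WT 2 held the highest value of the other 4 genes (13.4% of all genes). No synapse gene had its highest value in WT 1, KO 1 or KO 3, although 15.7%, 18.6% and 18.2% of all genes did. The lowest value was in WT 1 for 2 synapse genes (12.9% of all genes), in WT 2 for 1 (15.4%) and in WT 3 or KO 2 for none (12.4% and 25% of all genes).

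Measured as the mean deviation from each gene's own average on log2(FPKM + 1), the 35 genes stood at −0.20 in WT 1, 0.21 in WT 2 and 0.43 in WT 3. The values were −0.24 in KO 1, 0.46 in KO 2 and −0.66 in KO 3, while the median deviation of all genes tested stayed between −0.02 and 0.01. KO 3 was below the 6-library average for 35 of 35 genes, and WT 3 and KO 2 were above it for 32 and 31 genes. The 2 highest libraries were therefore 1 WT and 1 KO library.

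**Figure D1:**
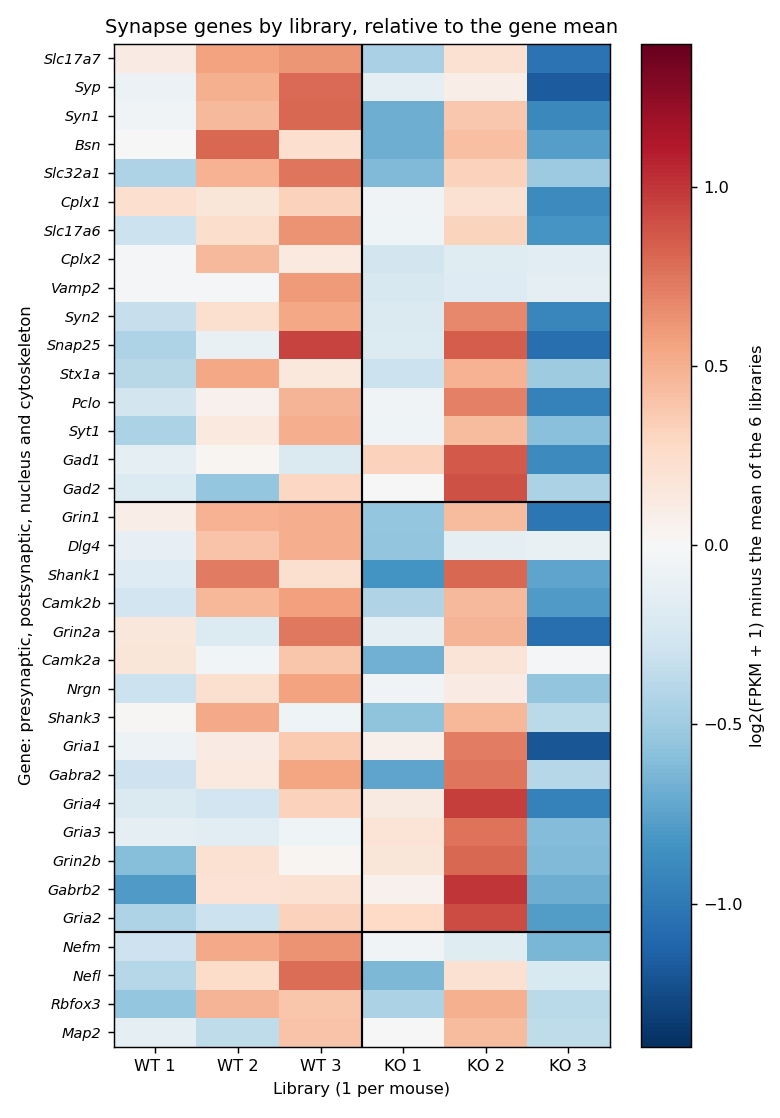
Each row is 1 of the 35 synapse genes and each column 1 library (1 mouse). Color gives log2(FPKM + 1) minus the gene's mean over the 6 libraries, red for above and blue for below, with lines between the presynaptic, postsynaptic and nucleus and cytoskeleton genes and between WT and KO. The WT 3 and KO 2 columns are mostly red, and KO 3 is at or below 0 in all 35 rows.

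Single pairs of libraries show the size of the pattern. WT 3 exceeded KO 3 for 35 of 35 genes (48% of all genes), with a median ratio of 2.14. KO 2 exceeded KO 3 for 32 of 35 genes (47.3% of all genes), with a median ratio of 2.37, although both came from the same genotype. WT 3 exceeded WT 1 for 33 of 35 genes (49.3% of all genes), with a median ratio of 1.54. WT 3 and KO 2 were close to each other, with 18 genes higher in WT 3 and 17 higher in KO 2 (52.8% of all genes were higher in WT 3).

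Within the genotypes, KO 2 was the highest KO library for 31 genes (36.6% of all genes) and KO 3 the lowest for 25 (31.3%). WT 3 was the highest WT library for 27 genes (33.9%) and WT 1 the lowest for 25 (33.6%). All 4 positions were found together in 14 of 35 genes, against 4.97% of all genes tested. The highest KO value was a median of 2.57 times the lowest KO value, and the corresponding figure for WT was 1.82. Over all genes tested these medians were 1.68 and 1.44. The spread was wider in KO than in WT libraries for 27 of the 35 genes. Cplx2 and Vamp2 were the 2 genes whose highest KO value was less than 1.2 times the lowest.

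Between genotypes, no synapse gene passed after adjustment, and none of the 14247 genes did (0% of all genes tested, smallest adjusted p = 0.841 with limma and Benjamini-Hochberg adjustment). At an unadjusted p under 0.05, 4 of 35 synapse genes were lower in KO libraries and 0 were higher, beside 3.11% lower and 2.77% higher over all genes (838 genes, 5.88%, in either direction). The log2 fold change was below 0 for 27 of 35 genes (50.8% of all genes). The median log2 fold change was −0.32, with a range from −0.86 to 0.30, beside a median of −0.01 over all genes tested. The groups did not overlap for 2 synapse genes, both lower in KO, which is 5.71% of the 35 and close to the 5.7% found over all genes. None was higher in KO without overlap (5.37% of all genes, and 11.1% in either direction).

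These counts depended on single libraries. Without KO 2, 35 of 35 genes were lower in KO (49.8% of all genes), the median was −0.63 and 12 genes had an unadjusted p under 0.05 (5.83% of all genes, lower). Without KO 3, 22 genes were lower (51.1% of all genes), the median was −0.13, 1 gene was lower at an unadjusted p under 0.05 (3.44%) and 3 were higher (3.53%). Those 3 were Gad1, Gria2 and Gria3, named after their values were seen. Without WT 3, 24 genes were lower (50.3%) with a median of −0.16, and without WT 2 or without WT 3 no synapse gene reached an unadjusted p under 0.05 in limma (1.42% and 2.72% of all genes, lower in KO). Without WT 1, 29 genes were lower (50.2% of all genes) with a median of −0.49 and 7 were lower below that limit (2.45%), and without KO 1 there were 2 (2.15%).

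**Figure D2:**
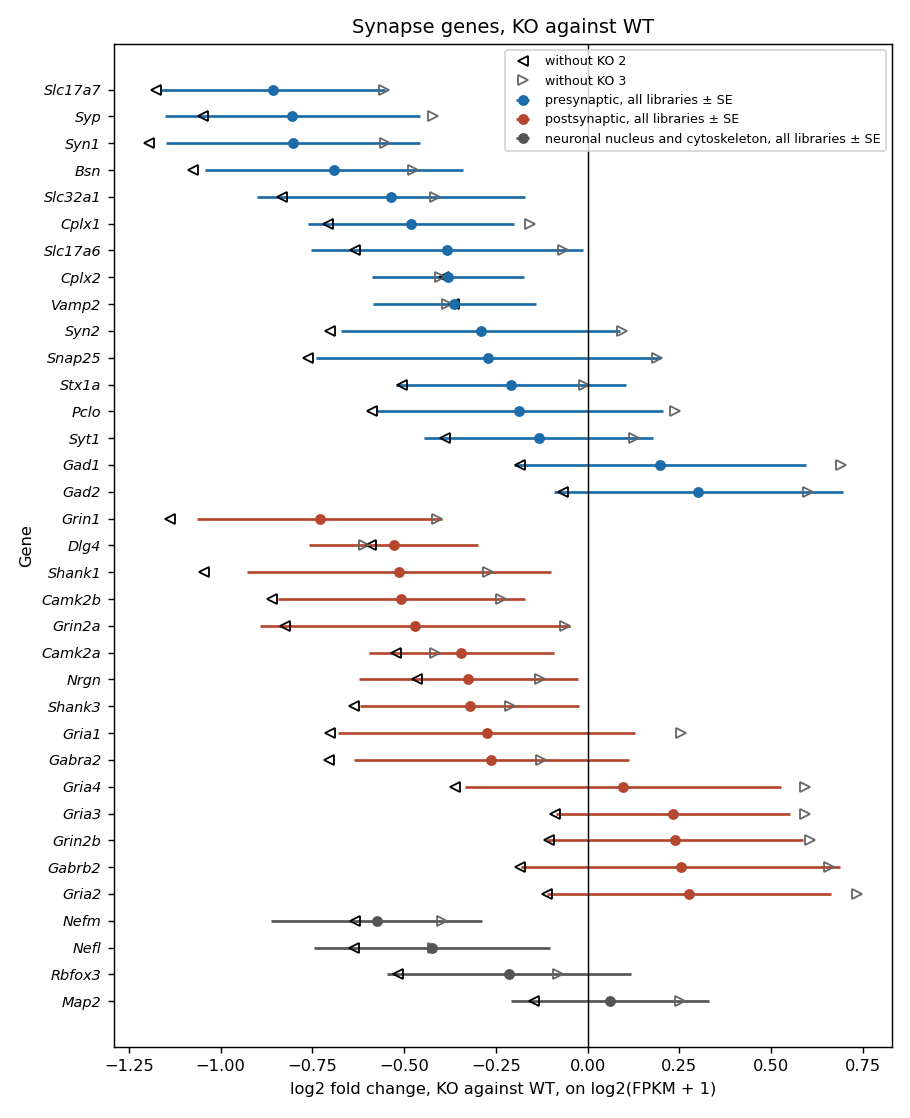
The log2 fold change of KO against WT on log2(FPKM + 1) is shown for each of the 35 genes, with the limma standard error (3 libraries per group) as a bar and the side of the synapse as color. Open triangles give the value without KO 2, below 0 for all 35 genes, and without KO 3, where 13 genes lie above 0.

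Among the genes of vesicles and vesicle fusion, Syp and Cplx2 had the highest levels. Syp, which encodes an abundant membrane protein of the vesicle, stood at 133, 198 and 244 FPKM in WT 1 to WT 3 and at 129, 149 and 61.9 FPKM in KO 1 to KO 3. KO 3 was by far the lowest, and KO 2 lay above WT 1, so the groups overlapped. The means were 192 ± 56.1 and 113 ± 45.7 FPKM (SD, n = 3 each), with a log2 fold change of −0.80 (unadjusted p = 0.0434, adjusted p = 0.841, limma). Without KO 3 it was −0.42 (unadjusted p = 0.19), and without WT 2 or WT 3 the unadjusted p was also above 0.05.

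Cplx2 encodes a complexin, which clamps and then promotes fusion. Its level was 141, 196 and 158 FPKM in WT 1 to WT 3 and 120.1, 127 and 129 FPKM in KO 1 to KO 3. All 3 KO values were below all 3 WT values and lay close together, and KO 3 was the highest of them. The log2 fold change was −0.38 (SE 0.21, unadjusted p = 0.0952, limma), and the exact two-sided permutation p was 0.1, the smallest that 3 mice against 3 allow.

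Vamp2, the vesicle SNARE synaptobrevin 2, was the other gene without overlap. It stood at 85.2, 84.9 and 131 FPKM in WT 1 to WT 3 and at 73.9, 76.2 and 78.3 FPKM in KO 1 to KO 3. Its KO values again lay close together, and the distance from WT 1 and WT 2 was small beside the excess in WT 3. The log2 fold change was −0.36 (SE 0.22, unadjusted p = 0.132, limma), and −0.16 without WT 3.

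Syn1, which encodes synapsin I, the protein that tethers vesicles to one another, followed the library pattern instead. Its values were 20, 28.6 and 36.8 FPKM in WT 1 to WT 3 and 12.5, 27.3 and 10.6 FPKM in KO 1 to KO 3. KO 2 lay within the WT range and the other KO libraries below it (log2 fold change −0.80, SE 0.35, unadjusted p = 0.0427, limma). The unadjusted p was above 0.05 without WT 2, WT 3, KO 1 or KO 3, with a value of −0.55 without KO 3. The remaining vesicle genes were Snap25, Syt1, Syn2, Stx1a and Cplx1, with log2 fold changes from −0.48 for Cplx1 to −0.13 for Syt1 and overlap in every case. Snap25, a SNARE of the plasma membrane, varied most among them, from 16.7 FPKM in KO 3 to 69.7 FPKM in WT 3.

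The paralogs Syn1 and Syn2 differed in their balance. The Syn2 to Syn1 ratio was 0.542, 0.570 and 0.557 in WT 1 to WT 3 and 0.951, 0.831 and 0.647 in KO 1 to KO 3, so that every KO library was above every WT library. The groups did not overlap after length and GC correction either (log2 difference 0.51 before and 0.41 after). This pair was chosen after its values were seen and was not tested.

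The active zone genes were lower in level. Bsn, encoding bassoon, a giant scaffold that organizes release sites, stood at 8.23, 15.2 and 9.87 FPKM in WT 1 to WT 3 and at 4.75, 11.4 and 4.41 FPKM in KO 1 to KO 3. KO 1 and KO 3 were below the WT range, and KO 2 was within it. Pclo, encoding its relative piccolo, stood at 5.66, 7.33 and 10.1 FPKM in WT and at 6.71, 12.02 and 3.14 FPKM in KO libraries in the same order. Here KO 2 was the highest and KO 3 the lowest of all 6, and the log2 fold change of −0.19 was smaller than its SE of 0.39.

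The genes that make and load transmitter covered both excitatory and inhibitory neurons. Slc17a7 encodes VGLUT1, the vesicular glutamate transporter used mostly by neurons of cortex and hippocampus. Its values were 73.8, 101 and 105 FPKM in WT 1 to WT 3 and 49.4, 79.1 and 32.8 FPKM in KO 1 to KO 3. Only KO 2 reached the WT range, and there it lay just above WT 1. The means were 93.3 ± 17.1 and 53.7 ± 23.4 FPKM, and the log2 fold change of −0.86 (SE 0.30, unadjusted p = 0.0184, adjusted p = 0.841, limma) was the most negative of the 35 genes. It was −0.55 without KO 3, and the unadjusted p was above 0.05 without KO 3, WT 2 or WT 3.

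Slc17a6 encodes VGLUT2, which is used mostly by neurons of the thalamus and brainstem, and was one of the lowest genes. It stood at 2.54, 4.13 and 5.71 FPKM in WT 1 to WT 3 and at 3.16, 4.38 and 1.46 FPKM in KO 1 to KO 3, with overlap. The Slc17a6 to Slc17a7 ratio was 0.0344, 0.0408 and 0.0544 in WT and 0.0640, 0.0554 and 0.0444 in KO libraries. It was higher in KO on average by 0.47 on log2(FPKM + 1), with an exact two-sided permutation p of 0.1, the smallest possible, although the plain ratios of WT 3 and KO 3 overlapped. The separation behind that p thus depended on the 1 added to each FPKM value. After correction for length and GC content the difference was 0.18 (exact permutation p = 0.4).

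Inhibitory terminals were represented by Slc32a1, the vesicular GABA transporter, and by the GABA-synthesizing enzymes Gad1 and Gad2. Slc32a1 stood at 4.23, 8.85 and 10.9 FPKM in WT 1 to WT 3 and at 3.59, 7.85 and 3.95 FPKM in KO 1 to KO 3. KO 1 and KO 3 were below the WT range, and the log2 fold change was −0.54 (SE 0.36, unadjusted p = 0.173, limma). Gad2 stood at 2.35, 1.63 and 3.68 FPKM in WT and at 2.86, 6.09 and 1.82 FPKM in KO libraries, with KO 2 highest and WT 2 lowest. Its log2 fold change of 0.30 was the highest of the 35 genes and smaller than its SE of 0.39. Gad1, at 2.34 to 10.2 FPKM, had its highest value in KO 2 and its lowest in KO 3, with a log2 fold change of 0.20.

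On the postsynaptic side, the AMPA receptor subunits Gria1 to Gria4 and the NMDA receptor subunits Grin1, Grin2a and Grin2b carry fast and calcium-permeable glutamate currents. Gria2, whose subunit limits calcium entry, stood at 24.5, 26.9 and 42.3 FPKM in WT 1 to WT 3 and at 41.0, 63.8 and 19.1 FPKM in KO 1 to KO 3. Gria1 stood at 27.9, 31.7 and 38.2 FPKM in WT and at 30.8, 48.8 and 12.2 FPKM in KO libraries. Both had their highest value in KO 2 and their lowest in KO 3, and neither difference exceeded its SE (log2 fold changes 0.28 and −0.27).

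Gria2 was nevertheless higher beside Gria1 in every KO library. The Gria2 to Gria1 ratio was 0.879, 0.848 and 1.11 in WT 1 to WT 3 and 1.33, 1.31 and 1.56 in KO 1 to KO 3. The Gria3 to Gria1 and Gria4 to Gria1 ratios were likewise above the WT range in all KO libraries. All of these ratios, which share Gria1 and were chosen after their values were seen, overlapped between the groups after length and GC correction.

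Grin2a, a subunit that becomes prominent in mature forebrain, was the second-lowest gene and varied most. It stood at 3.32, 2.41 and 5.47 FPKM in WT 1 to WT 3 and at 2.56, 4.38 and 0.867 FPKM in KO 1 to KO 3, a 6.31-fold range. The obligatory subunit Grin1 had a log2 fold change of −0.73 (SE 0.33, unadjusted p = 0.054, limma) and Grin2b of 0.24, smaller than its SE of 0.35 and below 0 without WT 1 or without KO 2.

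The GABA-A receptor subunits followed KO 2 as well. Gabra2 stood at 11.6, 16.0 and 21.6 FPKM in WT 1 to WT 3 and at 8.23, 25.0 and 10.7 FPKM in KO 1 to KO 3. Gabrb2 stood at 2.68, 6.30 and 6.34 FPKM in WT and at 5.61, 11.7 and 2.96 FPKM in KO libraries. KO 2 was the highest library for both, and the groups overlapped (log2 fold changes −0.26 and 0.25).

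Nrgn, which encodes neurogranin, a calmodulin-binding protein of the dendritic spine, was the highest of the 35 genes. Its values were 359, 516 and 654 FPKM in WT 1 to WT 3 and 426, 480 and 301 FPKM in KO 1 to KO 3. KO 3 was below and KO 1 and KO 2 were within the WT range (510 ± 148 and 402 ± 91.8 FPKM, log2 fold change −0.32, SE 0.30). Camk2b, a subunit of the spine kinase CaMKII, stood at 48.4, 81.0 and 87.7 FPKM in WT and at 43.7, 80.7 and 33.3 FPKM in KO libraries, with KO 2 again within the WT range.

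Dlg4, which encodes the scaffold PSD-95, departed from the library pattern. It stood at 44.3, 63.5 and 68.6 FPKM in WT 1 to WT 3 and at 32.4, 43.4 and 44.6 FPKM in KO 1 to KO 3. The groups met at WT 1 and KO 3, and KO 3 was the highest KO library. The means were 58.8 ± 12.8 and 40.1 ± 6.72 FPKM (log2 fold change −0.53, SE 0.23, unadjusted p = 0.0451, adjusted p = 0.841, limma). Of the 4 genes below an unadjusted p of 0.05, it was the one that stayed there after length and GC correction (unadjusted p = 0.0306 in limma, 2.27% of all genes, lower in KO). That correction took Dlg4 at 46.8% GC, from its longest coding transcript, which has 8 exons, among 22 annotated transcripts. Syp, Syn1 and Slc17a7 were taken at 56.6%, 57.9% and 58.5% GC. Whether Dlg4 would stay there with another of its transcripts was not tested. Without WT 2, WT 3 or KO 1 the unadjusted p of Dlg4 was above 0.05, with values of −0.46, −0.41 and −0.39. It was also above 0.05 with quantile normalization (unadjusted p = 0.0551) and without the trended variance (unadjusted p = 0.0699), where Slc17a7 was the only 1 of the 35 genes below 0.05. The other scaffold and kinase genes, Camk2a, Shank1 and Shank3, had log2 fold changes of −0.34, −0.51 and −0.32 and overlapping groups.

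Of the neuronal nucleus and cytoskeleton genes, Rbfox3 encodes the nuclear antigen NeuN and Map2 a dendritic microtubule protein. Rbfox3 stood at 16.8, 35.1 and 32.9 FPKM in WT 1 to WT 3 and at 18.1, 35.6 and 19.0 FPKM in KO 1 to KO 3. Map2 stood at 22.7, 19.5 and 33.5 FPKM in WT and at 25.2, 34.5 and 19.4 FPKM in KO libraries. The groups covered nearly the same range for both genes (log2 fold changes −0.21 and 0.06). The neurofilament genes Nefl and Nefm had log2 fold changes of −0.42 and −0.58. Their annotated exons share 1108 bases on opposite strands, and since the sources used here do not state whether fragments were counted by strand, their reads may not be separable. Exon overlap with an opposite-strand gene also covered 24.9% of the exon bases of Slc32a1, 16.8% of Syp and 13.5% of Grin1.

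Presynaptic and postsynaptic genes varied together across libraries, as the plot of group means by library shows. Of 16 presynaptic genes, 14 were lower in KO and 2 higher, with a median log2 fold change of −0.37 and 3 genes at an unadjusted p under 0.05. Of 15 postsynaptic genes, 10 were lower and 5 higher, with a median of −0.32 and 1 such gene. These called shares were 18.8% and 6.67%, beside 5.88% of all genes, so that the postsynaptic share was near that of all genes. Of the 4 nucleus and cytoskeleton genes, 3 were lower, with a median of −0.32. In KO 2 the postsynaptic mean deviation was 0.58 and the presynaptic 0.41, whereas in WT 3 they were 0.35 and 0.47. KO 3 was lowest on both sides, at −0.66 and −0.73.

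**Figure D3:**
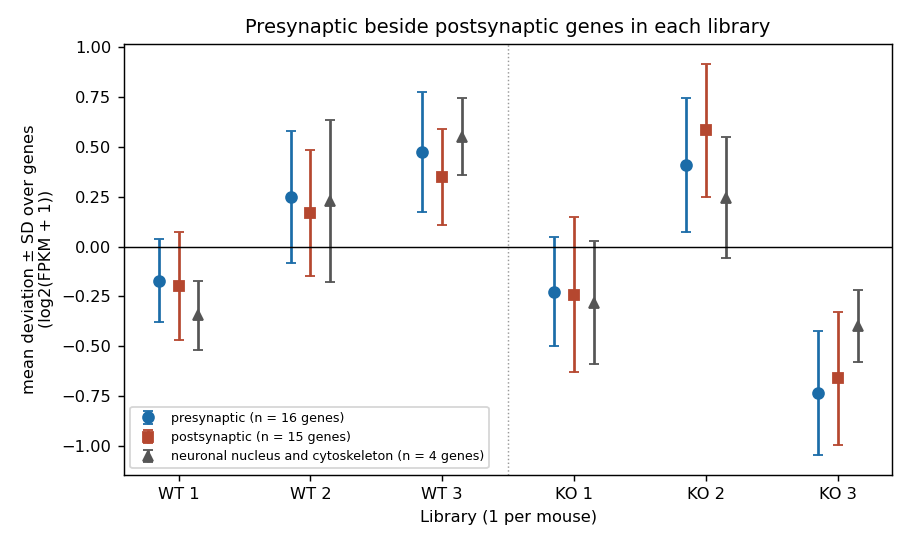
The mean deviation from each gene's 6-library mean, on log2(FPKM + 1), is plotted by library for 16 presynaptic, 15 postsynaptic and 4 nucleus and cytoskeleton genes. Bars are the SD over genes, not over mice. All 3 groups are above 0 in WT 2, WT 3 and KO 2 and below 0 in WT 1, KO 1 and KO 3.

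The presynaptic mean minus the postsynaptic mean was 0.03, 0.08 and 0.13 in WT 1 to WT 3 and 0.01, −0.17 and −0.07 in KO 1 to KO 3. All 3 KO values were below the WT values, by the least between WT 1 and KO 1. The median GC content was 53.4% for presynaptic and 46.8% for postsynaptic transcripts. After length and GC correction the differences were 0.003, 0.04 and 0.13 in WT and −0.03, 0.002 and −0.14 in KO libraries, again with no overlap, although WT 1 and KO 2 were nearly equal.

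In summed FPKM, the postsynaptic to presynaptic ratio was 1.17, 1.19 and 1.23 in WT 1 to WT 3 and 1.35, 1.43 and 1.34 in KO 1 to KO 3. That separation rested on Nrgn, which makes up a large part of the postsynaptic sum. Without Nrgn the ratio was 0.557, 0.549 and 0.517 in WT and 0.549, 0.750 and 0.603 in KO libraries, and KO 1 lay within the WT range.

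Fold change also followed the base composition of the transcripts. Across the 35 genes, the Spearman correlation between log2 fold change and GC content was −0.64, beside −0.35 across 13726 annotated genes. Genes within these libraries are not independent replicates, and the values are given as descriptions. Of the 18 genes with the highest GC content (51.6% to 62.4%), 18 were lower in KO, with a median log2 fold change of −0.49, whereas 64.9% of all genes in that GC range were lower, with a median of −0.12. Of the 17 with the lowest GC content (36.8% to 48.9%), 9 were lower and 8 higher, with a median of −0.13, beside 35.3% lower and a median of 0.11 for all genes in that range.

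Once a trend on length and GC content was removed from each library, the correlation was −0.26 across the 35 genes and −0.003 across all. The correlation with transcript length across all genes was not removed (−0.08 before and −0.10 after). The 18 genes of high GC content remained lower in KO, with a median of −0.31, and the same counts of 27 lower and 8 higher were found over the 35 genes (50.4% of all genes lower). The library pattern was also present in the corrected values, at −0.21, 0.19 and 0.41 in WT 1 to WT 3 and −0.18, 0.39 and −0.59 in KO 1 to KO 3.

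**Figure D4:**
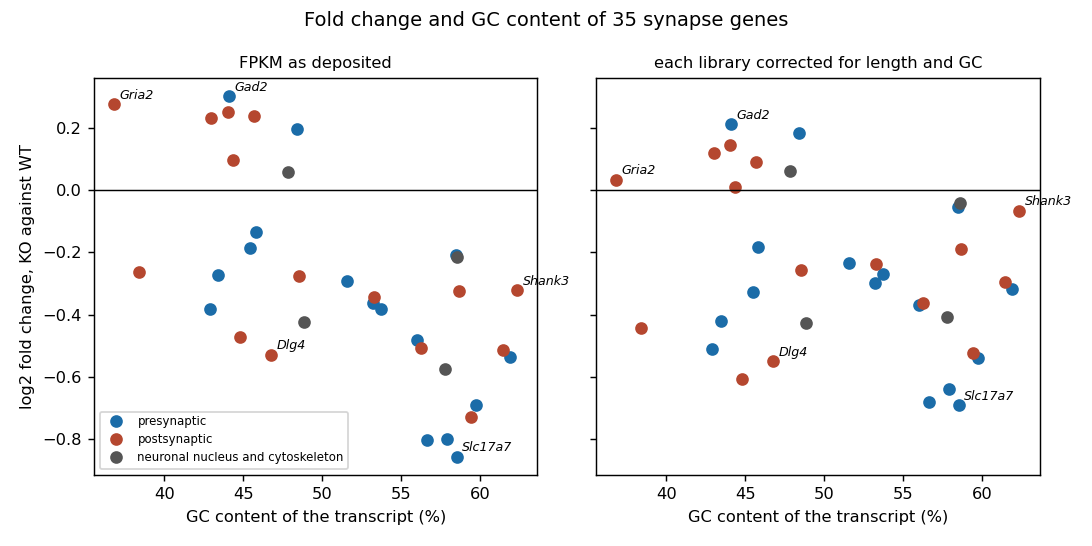
The log2 fold change of KO against WT is plotted against the GC content (%) of the longest protein-coding transcript for the 35 genes, with FPKM as deposited on the left and after removal of a length and GC trend from each library on the right. All 8 genes above 0 have a GC content under 48.9%, in both panels.

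Other synapse genes, listed by function, repeated the library pattern in part. Of 33 tested presynaptic genes outside the 35, 23 were lower and 10 higher in KO, with a median log2 fold change of −0.22 (69.7% lower, beside 50.8% of all genes), and 3 had an unadjusted p under 0.05 (9.09%, beside 5.88% of all genes). Rims1, a scaffold of the active zone, was higher, at 3.51, 1.81 and 6.29 FPKM in WT 1 to WT 3 and 11.7, 17.9 and 9.21 FPKM in KO 1 to KO 3. The groups did not overlap (log2 fold change 1.57, SE 0.37, unadjusted p = 0.00156, adjusted p = 0.841, limma), and even KO 3 was above every WT library.

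Snap91, which encodes the clathrin adaptor AP180 of vesicle recycling, was higher as well, at 12.5, 14.4 and 20.3 FPKM in WT and 24.1, 27.4 and 30.0 FPKM in KO libraries (log2 fold change 0.77, unadjusted p = 0.00637, adjusted p = 0.841, limma). KO 3, the lowest library for most synapse genes, was the highest for Snap91. Rab3a, the small GTPase of synaptic vesicles, was lower, at 32.3, 62.1 and 69.1 FPKM in WT and 25.4, 33.9 and 23.0 FPKM in KO libraries (log2 fold change −0.91, unadjusted p = 0.0111, adjusted p = 0.841, limma). Its groups overlapped, with KO 2 above WT 1, and without WT 3 the log2 fold change was −0.71 with an unadjusted p of 0.0544 (limma).

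Of 50 tested postsynaptic genes outside the 35, 33 were lower and 17 higher, with a median of −0.14 (66% lower). An unadjusted p under 0.05 was found for 3 (6%, beside 5.88% of all genes) and no overlap for 6 (12%, beside 11.1%), so both shares were near those of all genes. The 6 were Dlg3 and Dlgap1, higher in KO, and Dlgap3, Ddn, Arc and Ppp1r9b, lower in KO, of which Dlgap1, Ddn and Arc were named after their values were seen. Dlg3, which encodes the scaffold SAP102, was higher without overlap (12.2 ± 2.82 in WT and 18.2 ± 2.33 FPKM in KO, n = 3 each, log2 fold change 0.56, unadjusted p = 0.0349, limma). The scaffold gene Dlgap3 and Ppp1r9b, which encodes the spine protein spinophilin, were lower without overlap (log2 fold changes −0.69 and −0.51). After length and GC correction these were −0.40 (unadjusted p = 0.113) and −0.25 (unadjusted p = 0.219), both above the limit in limma, and Dlgap3 was −0.42 without KO 1. Dlg3 was 0.56 with all libraries and 0.38 without WT 1 (unadjusted p = 0.152). Of 8 mRNAs known to reach dendrites, 6 of them among the 35 genes, 7 were lower with a median of −0.43.

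Markers of whole neurons moved with the synapse genes. The summed level of 12 general neuron markers was 825, 1329 and 1475 FPKM in WT 1 to WT 3 and 995, 1454 and 572 FPKM in KO 1 to KO 3, with 9 of 12 lower in KO and KO 3 the lowest library. Among them, Uchl1 had a log2 fold change of −0.80 and Thy1 of −0.72, both with overlapping groups and an adjusted p of 0.841 in limma. Uchl1 was −0.54 without WT 3 and Thy1 −0.38 without KO 3, and the unadjusted p was then above 0.05. Markers of cortical and hippocampal excitatory neurons summed to 38.9, 60.7 and 79.4 FPKM in WT and 40.3, 70.0 and 25.2 FPKM in KO libraries, and KO 3 was the lowest library for 7 of 8. Of 7 markers of monoamine and cholinergic neurons, none passed the 1 FPKM limit. Of 8 markers of striatal projection neurons, 7 were lower in KO, among them the dopamine receptor gene Drd2 (log2 fold change −1.34, and −0.81 without WT 3, where the unadjusted p was 0.146 in limma). Drd2 was low, at 0.599, 2.47 and 6.14 FPKM in WT and 0.0863, 0.529 and 0.464 FPKM in KO libraries. WT 1 and all KO values were thus below 1 FPKM. The sum of that list did not follow the synapse pattern, since Ppp1r1b, which encodes DARPP-32, stood at 84.1, 73.5 and 119 FPKM in WT and at 193, 66.4 and 252 FPKM in KO libraries. Like the summed choroid plexus markers given below, Ppp1r1b was highest in KO 3 and KO 1, and the cells it came from were not tested. Of the tested markers of interneurons, 3 were lower and 3 higher, and of those of cerebellar neurons 5 were lower, with none at an unadjusted p under 0.05. The cerebellar markers Cbln3, Gabra6 and Pcp2 were not tested, with means of 0.243, 0.00594 and 0.171 FPKM over the 6 libraries.

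The other cell types did not share one pattern. The 10 endothelial markers summed to 1145, 1257 and 949 FPKM in WT 1 to WT 3 and 1087, 862 and 1103 FPKM in KO 1 to KO 3. They were thus lowest in KO 2 and WT 3, the libraries with the highest synapse levels, although the endothelial range was narrow. The 4 choroid plexus markers summed to 3288, 2872 and 2809 FPKM in WT and 8741, 2922 and 10410 FPKM in KO libraries, highest in KO 3 and KO 1, the KO libraries with low synapse levels. The 6 oligodendrocyte markers summed to 409.5, 283 and 364 FPKM in WT and 356, 276 and 150.0 FPKM in KO libraries, with KO 3 lowest. The sum of the 7 astrocyte markers, at 611 to 724 FPKM in WT and 466 to 515 FPKM in KO, separated by genotype and not by the synapse pattern. Gja1 and Gfap, the 2 with the highest levels, did not overlap, whereas Aqp4, Aldh1l1, Slc1a2, Slc1a3 and Aldoc did. The mean deviation of the astrocyte list overlapped as well, at −0.09 in WT 2 and −0.07 in KO 2. The sums of oligodendrocyte precursor markers (101 to 112 FPKM in WT and 76.8 to 90.6 FPKM in KO) also separated by genotype, while those of microglia markers nearly met (144 to 161 FPKM in WT and 123 to 142 FPKM in KO). Smooth muscle markers summed to 371 to 838 FPKM in WT and 398 to 1049 FPKM in KO, highest in KO 1 and WT 1. Fibroblast markers summed to 1186 to 1778 FPKM in WT and 784 to 1088 FPKM in KO, again without overlap of the sums. Among them, Col1a1 and Col1a2 did not overlap, whereas Dcn and Lum did. The mean deviation of the fibroblast list overlapped, at −0.13 in WT 3 and 0.01 in KO 1. At an unadjusted p under 0.05 in limma, the markers Cdh5 (endothelial, log2 fold change −1.03), Anpep (pericyte), Gfap and Gja1 (astrocyte), Mag, Cnp and Mobp (oligodendrocyte), Cspg4 (oligodendrocyte precursor) and Col1a1 (fibroblast) were lower in KO, Kl and Otx2 (choroid plexus) were higher, and no microglia or smooth muscle marker was called. The erythroid gene Hbb-bs also had such a p but is given no direction, since it was listed at 0 in WT 1 and in all KO libraries, while Hba-a1 stood at 1081 to 2215 FPKM in the same 6 libraries and its near-identical copy Hba-a2 at 0.0269 to 255 FPKM. How reads were divided among the globin copies was not tested. No listed marker of these types was at 0 in all 6 libraries. The part of these differences in the synapse values was not tested.

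**Figure D5:**
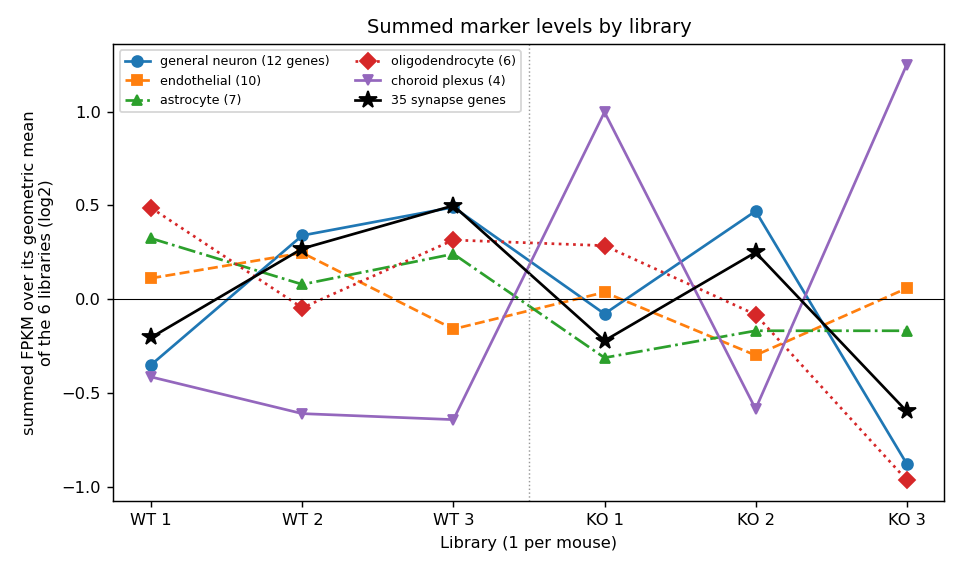
Summed FPKM is plotted for the 35 synapse genes and 5 marker lists by library, as log2 of the sum over its geometric mean of the 6 libraries. The general neuron line runs with the synapse line, and the choroid plexus line is highest in KO 1 and KO 3.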

How the data were processed

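Each of 6 libraries, made with a directional kit, held microvessel RNA of 1 mouse (3 WT, 3 TEKCRIF1 KO). The authors trimmed reads, mapped them with TopHat (mm10 in the submitters' processing notes) and deposited FPKM values per gene symbol. The annotation and counting settings are not given in the sources used here.

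Libraries were grouped by labelled genotype. FPKM values were used as log2(FPKM + 1), so fold changes of low genes are understated, and fitted with limma 3.58.1 (R 4.3.3, trended prior variance) for genes averaging 1 FPKM or more, with Benjamini-Hochberg adjustment over 14247 genes. The fit was tested on simulated data. Exact two-sided permutation tests reach 0.1 at the lowest. Transcript length and GC content came from GENCODE M21 (GRCm38), and trends were removed by loess (span 0.3). Depth was estimated from the value of 1 fragment, and covers counting error only.

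The 35 genes and the other lists were chosen with earlier results of these data known. Values per library are given for genes with an unadjusted p under 0.05 or no overlap, the 2 highest of each role group and the 3 lowest, and from other lists for up to 4 genes with an unadjusted p under 0.05, of which some are not reported here. Alternatives were another filter, pseudocount, scaling (trimmed mean, quantile), prior variance, the length and GC correction, a replicate block and leaving out each library.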

Additional observations from a re-analysis of the deposited data

How the results depend on the processing

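The median log2 fold change of the 35 genes, of the presynaptic and of the postsynaptic genes stayed below 0 under every alternative. With 1 library left out it ran from −0.63 (without KO 2) to −0.13 (without KO 3) for the 35 genes, from −0.67 to −0.11 for the presynaptic and from −0.59 to −0.12 for the postsynaptic genes. The count of synapse genes at an unadjusted p under 0.05 was 4, and it was 2 with no filter and 1 each with quantile normalization, with length and GC correction and without the trended variance. Over all genes the counts under these settings were 1033, 928, 690 and 795. With 1 library left out it ran from 0 (without WT 2, and without WT 3) to 12 (without KO 2). Over all genes this count was 838 and ran from 450 (without WT 2) to 1871 (without KO 2). The cause was not tested, beyond the smaller number of libraries. With the replicate number as a block, 6 synapse genes and 871 genes were below that limit. Same-numbered libraries correlated at 0.04, 0.03 and 0.002 in their deviations from the group means, and the numbers were not taken to pair the mice. The numbers are those of the sample titles, and the headers of the deposited tables carry others.

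Leaving out 1 library changed the sign of 15 genes and kept that of 20. The ranges were −0.70 to 0.044 for Gabra2, −0.19 to 0.66 for Gabrb2, −0.18 to 0.69 for Gad1, −0.066 to 0.60 for Gad2, −0.70 to 0.25 for Gria1, −0.11 to 0.73 for Gria2, −0.090 to 0.59 for Gria3 and −0.36 to 0.59 for Gria4. They were −0.10 to 0.61 for Grin2b, −0.15 to 0.28 for Map2, −0.59 to 0.24 for Pclo, −0.76 to 0.19 for Snap25, −0.50 to 0.012 for Stx1a, −0.70 to 0.093 for Syn2 and −0.39 to 0.13 for Syt1. No other alternative changed a sign among the 35 genes. The Slc17a6 to Slc17a7 difference was 0.18 to 0.47 under the scaling, pseudocount and correction alternatives and 0.39 to 0.60 with 1 library left out, with an exact p of at least 0.1 throughout. Counting error was largest for Slc17a6, Slc32a1, Gad2 and Gad1, whose lowest library held an estimated 72, 81, 84 and 94 fragments.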
